A study of Mus musculus with 2 samples.

Results

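The 10 genes described here carry Cfap symbols, for cilia and flagella associated proteins: Cfap43, Cfap44, Cfap45, Cfap52, Cfap53, Cfap57, Cfap58, Cfap65, Cfap70 and Cfap100. They were found by gene name among the non-control probes of 1 mouse expression array. Current and former symbols such as Wdr52 and Ccdc108 gave 7 of the 10 genes on 12 probes. Cfap43, Cfap57 and Cfap58 stood on the array under still older names (D19Ertd652e, 1110020C03Rik and Gm969), which RefSeq lists as synonyms, and added 5 probes. All 10 genes were thus present, on 17 of 41170 probes, among 17244 genes that gave a ratio.

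The array compared airway epithelium of fetal mouse lung at E14.5 with that at E18.5 (E for embryonic day). Both samples came from wild-type male fetuses of the CD-1 stock, without any treatment. Pieces of airway wall were cut by laser from stained frozen sections of 1 lung per age, and the RNA was amplified once. The E14.5 material was labelled with Cy3 (green) and the E18.5 material with Cy5 (red), and both were hybridised to the same array, so each age is 1 sample and no p-value was computed. No dye swap was made, and dye and age cannot be told apart.

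A motile cilium is built around an axoneme, a ring of microtubule doublets with a central pair, along which dynein arms, spokes and inner proteins repeat. In the airway, cells with many motile cilia move mucus, and they arise in late gestation. FOXJ1, the transcription factor whose effectors the study sought, and RFX factors are known to switch on axoneme genes in such cells. The Cfap symbols mark proteins first catalogued in cilia or flagella and do not stand for 1 family. CFAP45, CFAP52 and CFAP53 line the inside of the doublets, CFAP43 and CFAP44 tether an inner dynein arm, CFAP57 and CFAP100 serve inner arms, CFAP70 is associated with outer arms, and CFAP58 and CFAP65 are known chiefly from the sperm flagellum.

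Promoter sequences of 5 members are printed first, because these stretches hold letter matches described further on. The windows of Cfap57, Cfap58 and Cfap100 also hold matches but are not printed. Whether promoter letters bear on the ratios was not tested. Each line gives the 250 bases before the RefSeq transcript start on GRCm38.p6, read 5′ to 3′ on the gene's strand. Capitals mark matches on either strand to TGTTTAC, the core that forkhead factors such as FOXJ1 recognise, to GTTNCC, an arm of the X-box that RFX factors recognise, and to GTTGCTAT.
Cfap43 (chr19:47837362-47837611, minus strand): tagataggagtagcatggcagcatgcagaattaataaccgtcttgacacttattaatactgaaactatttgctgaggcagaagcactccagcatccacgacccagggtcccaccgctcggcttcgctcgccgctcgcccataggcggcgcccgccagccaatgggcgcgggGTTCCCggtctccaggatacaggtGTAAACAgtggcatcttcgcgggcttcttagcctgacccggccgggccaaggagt
Cfap44 (chr16:44394549-44394798, plus strand): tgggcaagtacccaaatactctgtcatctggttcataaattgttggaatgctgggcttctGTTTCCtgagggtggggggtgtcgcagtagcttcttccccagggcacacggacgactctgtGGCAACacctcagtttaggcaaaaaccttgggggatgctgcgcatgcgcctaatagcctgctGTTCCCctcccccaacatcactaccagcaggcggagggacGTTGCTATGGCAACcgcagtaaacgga
Cfap45 (chr1:172520880-172521129, plus strand): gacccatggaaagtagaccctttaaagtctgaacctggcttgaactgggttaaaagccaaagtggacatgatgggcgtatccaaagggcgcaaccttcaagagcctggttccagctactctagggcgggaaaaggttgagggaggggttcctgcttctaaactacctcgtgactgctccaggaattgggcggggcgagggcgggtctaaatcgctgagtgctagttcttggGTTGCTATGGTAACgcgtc
Cfap52 (chr11:67965643-67965892, minus strand): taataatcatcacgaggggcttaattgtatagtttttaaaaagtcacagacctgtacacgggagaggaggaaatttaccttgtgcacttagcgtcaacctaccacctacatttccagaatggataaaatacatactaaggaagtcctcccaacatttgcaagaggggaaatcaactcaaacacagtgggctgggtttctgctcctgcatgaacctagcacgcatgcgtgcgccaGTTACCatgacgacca
Cfap70 (chr14:20452226-20452475, minus strand): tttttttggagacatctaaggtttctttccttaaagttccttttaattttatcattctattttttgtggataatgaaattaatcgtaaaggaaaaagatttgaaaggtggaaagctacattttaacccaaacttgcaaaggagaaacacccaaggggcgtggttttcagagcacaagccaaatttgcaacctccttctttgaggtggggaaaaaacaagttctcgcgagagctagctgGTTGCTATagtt

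All 10 genes were brighter at the later age, by 4.94-fold to 27.8-fold, with a median of 18.3-fold. Of the 10, 10 were higher by 2-fold or more and 9 by 8-fold or more. Among all genes with a ratio, 17.3% were higher by 2-fold or more, 3.17% were higher by 8-fold or more, and 10.1% were lower by 2-fold or more. With the median over a gene's probes in place of the brightest probe, 9 of the 10 members were higher by 2-fold or more. The share over all genes was then 15.2%. Cfap65 was at a log2 ratio of 0.51, a value that rests on a probe dim at E14.5. Another Cfap65 probe, measured at both ages, was at 0.45. The median log2 ratio was 4.19 for the members and 0.06 over all genes. By the probe used, all 10 were well above background at both ages, and no member probe was saturated (0 probes). Intensities below are normalized, background-corrected values in arbitrary units, and log2 ratios are E18.5 over E14.5. In a dissected piece, more ciliated cells and more RNA per ciliated cell cannot be told apart.

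Among the proteins inside the microtubule doublets, Cfap45 had an intensity of 3899 at E14.5 and 43151 at E18.5. Its log2 ratio was 3.47, or 11.1-fold, the smallest of the 7 genes found under the current or former symbols. Cfap52, a WD-repeat protein once called Wdr16, had an intensity of 2172 at E14.5 and 39172 at E18.5, a log2 ratio of 4.17 (18.04-fold). Cfap53, whose loss is known to disturb left-right asymmetry, had an intensity of 625 at E14.5 and 10458 at E18.5, a log2 ratio of 4.06 (16.7-fold). Each of these 3 genes was measured by 1 probe, and each was already above background at the earlier age.

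Among the genes that serve inner dynein arms, Cfap57 had an intensity of 502 at E14.5 and 13944 at E18.5. Its log2 ratio of 4.80 (27.8-fold) was exceeded by 0.66% of all genes. Cfap44 had an intensity of 454 at E14.5 and 10828 at E18.5 by the probe used, a log2 ratio of 4.58 (23.8-fold). Its partner Cfap43 had an intensity of 825 at E14.5 and 16231 at E18.5, a log2 ratio of 4.30 (19.7-fold). Cfap100, which belongs to a complex that modifies inner arms, had an intensity of 284 at E14.5 and 5559 at E18.5, a log2 ratio of 4.29 (19.5-fold).

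Cfap70, the outer arm protein, had an intensity of 624 at E14.5 and 11573 at E18.5, a log2 ratio of 4.21 (18.54-fold). Cfap65, needed for the sperm flagellum, had an intensity of 1020 at E14.5 and 14417 at E18.5, a log2 ratio of 3.82 (14.1-fold). Cfap58, a coiled-coil protein of the sperm flagellum, had an intensity of 111 at E14.5 and 547 at E18.5, a log2 ratio of 2.30 (4.94-fold), against 3.44 in the scanner software's ratios. It was near the lower end of the measurable range at E14.5, where the lowest intensity among probes well above background was 83.4.

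**Figure D1:**
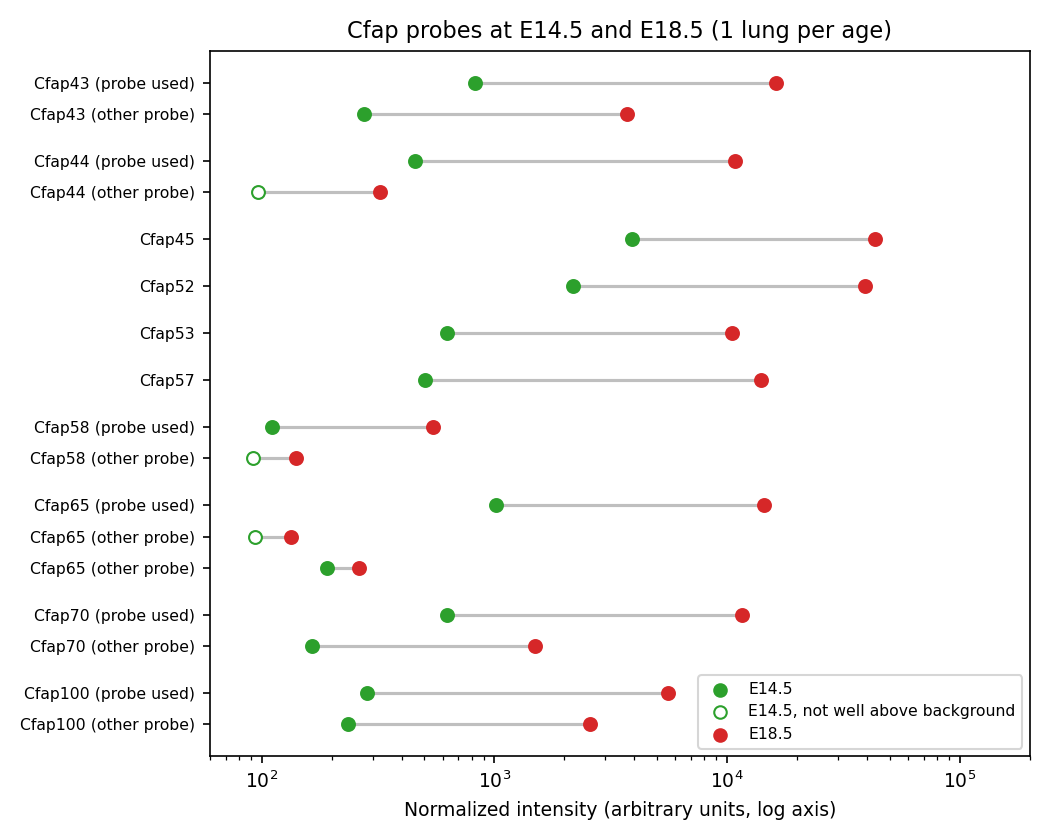
Normalized intensity on a log axis for each of the 17 probes of the 10 Cfap genes, with E14.5 in green, E18.5 in red and a line joining both ages of a probe. Open circles mark E14.5 values not well above background. Every red point lies to the right of its green point, and the shortest lines belong to the other probes of Cfap58 and Cfap65.

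Most neighbours in the order of the ratios could not be told apart by size. In descending order, the log2 ratios ran from Cfap57 (4.80) through Cfap44, Cfap43, Cfap100, Cfap70, Cfap52, Cfap53 and Cfap65 to Cfap45 (3.47) and Cfap58 (2.30). Neighbours from Cfap57 down to Cfap65 differed by 0.009 to 0.28, and Cfap65 and Cfap45 by 0.35. The scanner software's error of the log2 ratio was between 0.38 and 0.50 for these probes, and different probes of a gene had a median SD of 0.33 over 6890 genes. The step of 1.16 from Cfap45 to Cfap58 was larger than both, but it was not present in the scanner software's own ratios, where Cfap58 was at 3.44 and Cfap45 at 3.38. Members further apart in the order could differ by more than these errors. Cfap57 and Cfap45 were at 4.80 and 3.47, and at 4.83 and 3.38 in the scanner software's ratios. The scanner software's error and the SD between probes are technical and cover no difference between lungs.

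**Figure D2:**
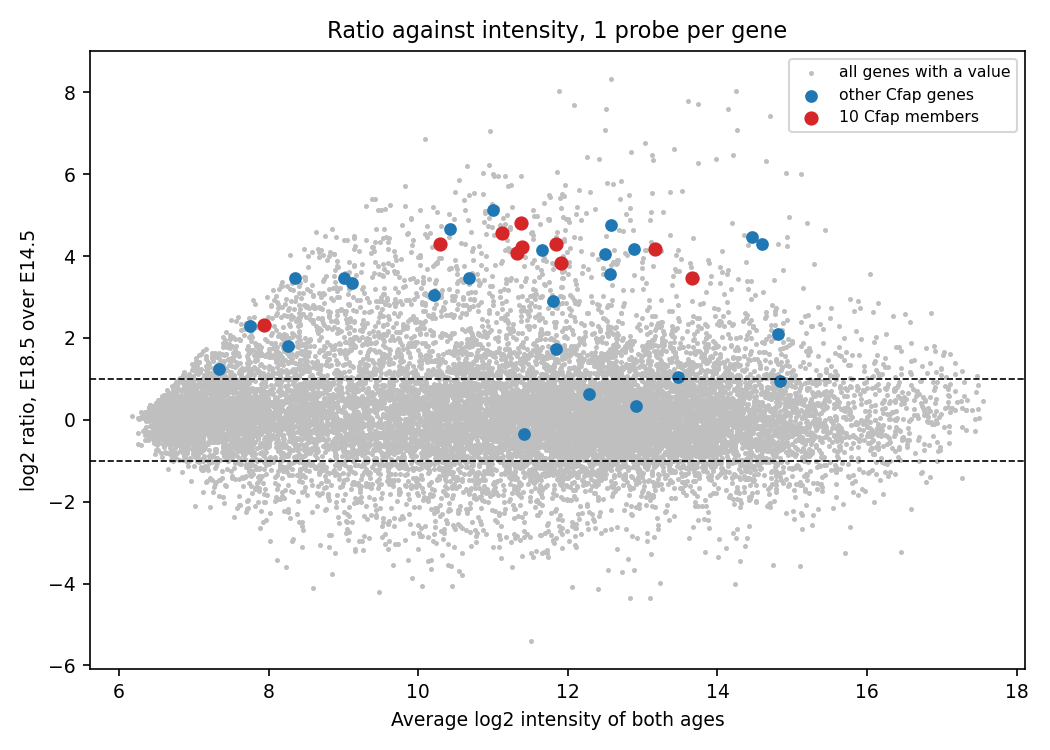
The log2 ratio of E18.5 over E14.5 against the average log2 intensity of both ages, with 1 probe per gene. Red points are the 10 Cfap members, blue points the 25 other Cfap genes with a value, grey points all 17244 genes, and dashed lines mark 2-fold. The members lie from 2.30 to 4.80 while the median of all genes is 0.06, and Cfap58 is the red point at the dim end.

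Several members were read by more than 1 probe, and these probes differed in size but not in direction. The intensity was higher at E18.5 for 17 of 17 probes, in 14 of them by 2-fold or more. The 17 probes stand for 10 genes. With 1 probe per gene, 9375 of all 17244 genes had a ratio above 0, and 17.3% were higher by 2-fold or more. Of 6 members with several probes, 5 had 2 and Cfap65 had 3. Beside each probe used, the other probes gave 7 pairs, of which 4 were measured at both ages by both probes (Cfap43, Cfap65, Cfap70 and Cfap100) and 3 have only a bound for the other probe. In 7 of 7 pairs the probe used lay 3′ of the other in the direction of transcription, by the mm8 coordinates in the scanner files, as it did in 75.8% of 10629 pairs over all genes. Of the 4 measured pairs, the probe used had the larger ratio in 4, and 2 pairs were at least 2-fold apart. These were Cfap65, by 3.37 on the log2 scale, and Cfap70, by 1.02, which was 0.43 in the scanner software's ratios. Over all genes, the probe used had the larger ratio in 53.6% of 9725 measured pairs. The probe used was chosen as the brightest over both ages, and the offset pulls ratios of dim probes towards 0. In genes that are higher at E18.5, both can favour a larger ratio for the probe used. The share over all genes is therefore no like baseline for the members.

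The first 30 of 60 bases of both probes are printed for Cfap65, Cfap44 and Cfap58, to show that the probes of each pair differ in sequence.
Cfap65, probe used: aagcaatactggagaacatgattcagaaca
Cfap65, other probe: ttgggaaggtatcactttagaacagtggct
Cfap44, probe used: tttcagaagagtaatctgtttctctggtat
Cfap44, other probe: gagttcttgagaatacagaagacaacccca
Cfap58, probe used: agatccaacagtcagtgctgaacaaaggcg
Cfap58, other probe: gcccagaagcagaggaagatcatctttcag

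For Cfap65 the probe used lies at chr1:74835598-74835657 and the other at chr1:74855572-74855631 on mm8, 19974 bases apart, both on the minus strand. The other probe had an intensity of 192 at E14.5 and 262 at E18.5, a log2 ratio of 0.45 (1.36-fold) against 3.82 by the probe used. The third Cfap65 probe, 21256 bases from the probe used, was not well above background at E14.5 (93.4) and had an intensity of 133 at E18.5, at least 1.42-fold higher.

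For Cfap44 the probe used lies at chr16:44401049-44401108 and the other 51803 bases upstream on the plus strand. The other probe was not well above background at E14.5, with an intensity of 96.4, and had an intensity of 323 at E18.5, at least 3.35-fold higher. For Cfap58 the probe used lies at chr19:48036838-48036897 and the other 21044 bases upstream. The other Cfap58 probe was not well above background at E14.5 (92.0) and reached only 141 at E18.5, at least 1.53-fold higher, a bound that allows a 2-fold difference. Where the E14.5 value is a bound, the gap to the probe used is not fixed. Whether a probe lies in an exon, an intron or a UTR was not analysed here.

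The remaining 3 pairs were measured at both ages by both probes. The other Cfap43 probe had an intensity of 275 at E14.5 and 3700 at E18.5, a log2 ratio of 3.75 (13.5-fold), with 77063 bases between the probes. The other Cfap100 probe had an intensity of 234 at E14.5 and 2586 at E18.5, a log2 ratio of 3.46 (11.04-fold). The other Cfap70 probe had an intensity of 164 at E14.5 and 1501 at E18.5, a log2 ratio of 3.19 (9.15-fold). All 3 of these genes were at least 8-fold higher by each of their probes.

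**Figure D3:**
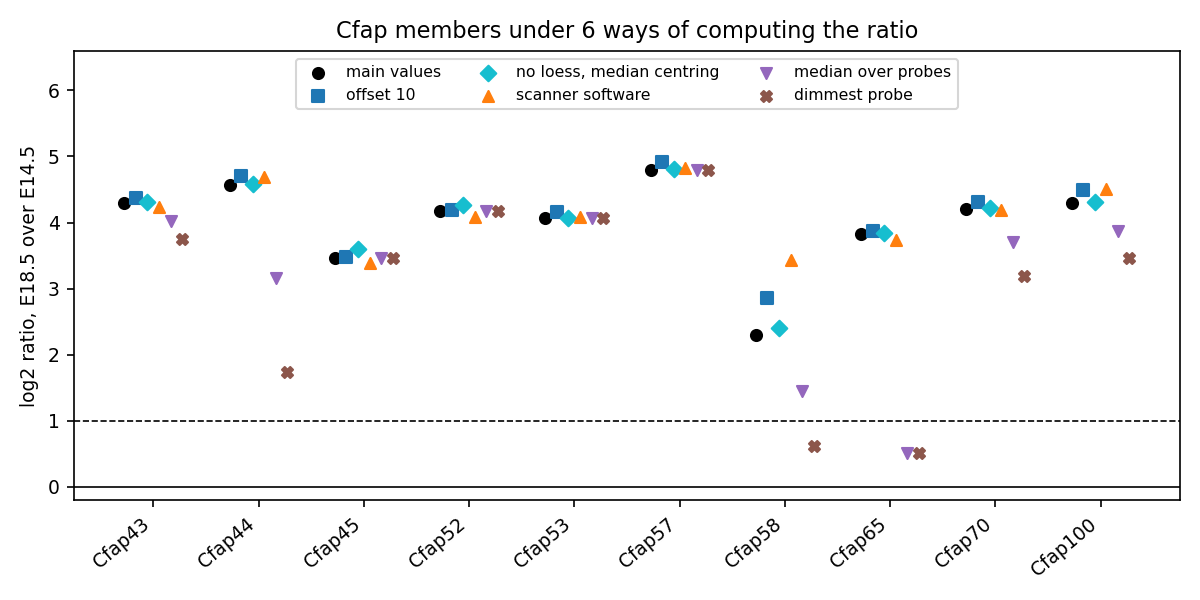
The log2 ratio of each Cfap member under 6 ways of computing it, with a dashed line at 2-fold. The symbols nearly coincide for Cfap45, Cfap52, Cfap53 and Cfap57, which have 1 probe each. Cfap44 spreads from 1.75 to 4.70 and Cfap58 from 0.61 to 3.44, where the lower ends are bounds from the dimmest probe. Cfap65 is at 0.51 where the median or the dimmest of its probes is taken.

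The 10 members were set beside the other genes with Cfap symbols. Of 41 such genes listed, 32 could be named in the RefSeq table, 27 were on the array, and 25 had a value. Of these 25, 21 were higher at the later age by 2-fold or more, 0 were lower by that much and 4 differed by less, with a median log2 ratio of 3.34. Over all genes, 17.3% were higher by 2-fold or more. Cfap91, a protein of the calmodulin- and spoke-associated complex, had the largest of these ratios by the probe used at 5.12 (34.7-fold), with intensities of 349 and 12116, and another probe at 1.70. In the scanner software's ratios it was at 5.25 and Cfap46, named after its value was seen, at 5.29. In the main values Cfap46 was at 3.47, with an intensity of only 98.6 at E14.5 and another probe at a bound of 0.26. In these main values Cfap91 was followed by Cfap299 (4.75, 26.9-fold), Cfap157 (4.67, 25.5-fold, other probe 3.84), Cfap144 (4.46, 21.9-fold) and Cfap126, also called Flattop, which helps to place basal bodies (4.30, 19.7-fold). The largest member ratio, that of Cfap57, lay between those of Cfap91 and Cfap299.

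By the probe used, the other Cfap genes also reached lower than any member. The smallest log2 ratios were those of Cfap36, a binding protein of the small GTPase ARL3 (1.05, 2.08-fold), Cfap20, a protein of the junction between the microtubules of a doublet (0.95, 1.93-fold), Cfap410, found at basal bodies (0.64), Cfap97 (0.33) and Cfap20dc (−0.36). Their intensities at E14.5 were between 3077 for Cfap20dc and 21067 for Cfap20. Large ratios were therefore not common to all genes with a Cfap symbol. Among the members, Cfap65 came to 0.51 with the median over probes, a value that rests on a probe dim at E14.5. Another Cfap65 probe, measured at both ages, was at 0.45, between Cfap410 and Cfap97. Cfap97d1 and Cfap337 were not well above background at either age and gave no ratio.

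**Figure D4:**
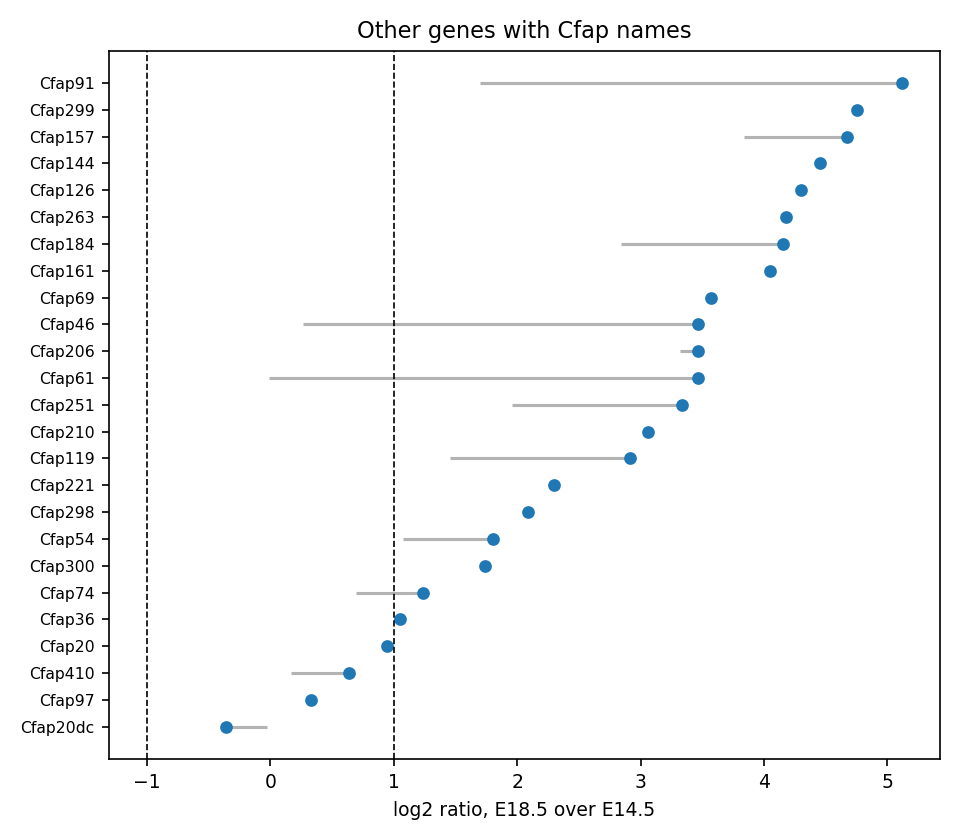
The log2 ratio of E18.5 over E14.5 for the 25 other Cfap genes with a value, in order. Points are the probe used, grey lines span the other probes of the gene (which may be bounds), and dashed lines mark 2-fold: 21 genes lie at or beyond 2-fold on the higher side, 4 lie between the lines, and Cfap20dc alone is below 0 by the probe used.

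Markers of the multiciliated cell moved with the members. Foxj1 had an intensity of 5039 at E14.5 and 22922 at E18.5, a log2 ratio of 2.19 (4.55-fold). This was smaller than the ratios of 10 of 10 members by the probe used, and of 8 of 10 with the median over probes. With the dimmest probe, Foxj1 was below 7 of 10. The lead of Cfap58 over Foxj1 was only 0.12 by the probe used, under the scanner software's error for Cfap58 (0.38). In that software's ratios, Cfap58 was at 3.44 and Foxj1 at 2.02. All 5 multiciliated markers were higher by 2-fold or more, Rsph1 at 2.79, and their summed intensity went from 18423 to 169437. Of 5 epithelial markers, 2 were higher by that much and 3 differed by less (sum 207398 to 348347), with Epcam at −0.75 and Cdh1 at 1.34. All 3 club cell markers (sum 4538 to 915519, Scgb1a1 at 8.03, Scgb3a2 at 7.42) and all 3 type II markers (sum 38218 to 224854, Sftpc at 2.54, Sftpb at 3.96) were higher by 2-fold or more. Of markers from outside the epithelium, 2 of 4 leukocyte genes (sum 2175 to 6115, Ptprc at 3.21, Cd68 at 0.33), 1 of 4 endothelial genes (sum 8303 to 76886, Pecam1 at 0.64, Cdh5 at 0.35) and 0 of 4 mesenchymal genes (sum 329379 to 265773, Col1a1 at 0.32, Col1a2 at 0.69) were higher by 2-fold or more. The endothelial gene was Kdr, at 4.13 (intensity 4090 to 71669), and 1 mesenchymal gene, Acta2, was lower by 2-fold or more, at −1.52; both were named after their values were seen. Of erythroid markers, Alas2 was at 1.78 and Klf1 at −1.12. None of these markers was dim at both ages, and only Itgam was dim at the earlier age alone. The part of cell composition in the Cfap ratios was not tested.

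RefSeq promoter windows were given for 8 of the 10 members, each from 250 bases before to 50 bases after the transcript start. Cfap53 and Cfap65 had no entry. The forkhead core TGTTTAC, searched on both strands, was found in 1 of 8 windows, that of Cfap43, on the minus strand from 55 to 49 bases before the start. Of all 32851 windows of that length, 3.65% held it. Among the other Cfap genes, 2 of 27 windows, from 23 genes, held it. The X-box arm GTTNCC was found in 6 of 8 member windows against 45.3% of all windows. It was in 19 of 27 windows of the other Cfap genes (70.4%). The members held 4 matches in Cfap44 and 1 each in Cfap43, Cfap45, Cfap52, Cfap58 and Cfap100. Paired arms were GTTNCC and GGNAAC with 0 to 3 bases between them, in exact letters. They were found in 0 of 8 member windows, in 0.804% of all windows and in 4 of 27 windows of other Cfap genes. A pair with 1 changed letter was not counted.

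The letters GTTGCTAT recurred near the start in several of these windows. They were searched only because they were noticed in the members' sequences, so their count among the members supports nothing. They were present in 4 of 8 member windows (Cfap44, Cfap45, Cfap57 and Cfap70), 0.95% of all windows and 0 of 27 windows of the other Cfap genes. In Cfap44 and Cfap45 they directly precede a match to the X-box arm on the other strand, as the capitals in the printed lines show. There the run opens with GTTGCT, which differs from GTTNCC only in its last letter, so neither was counted as paired arms. A match is a description of letters, not a site of binding.

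**Figure D5:**
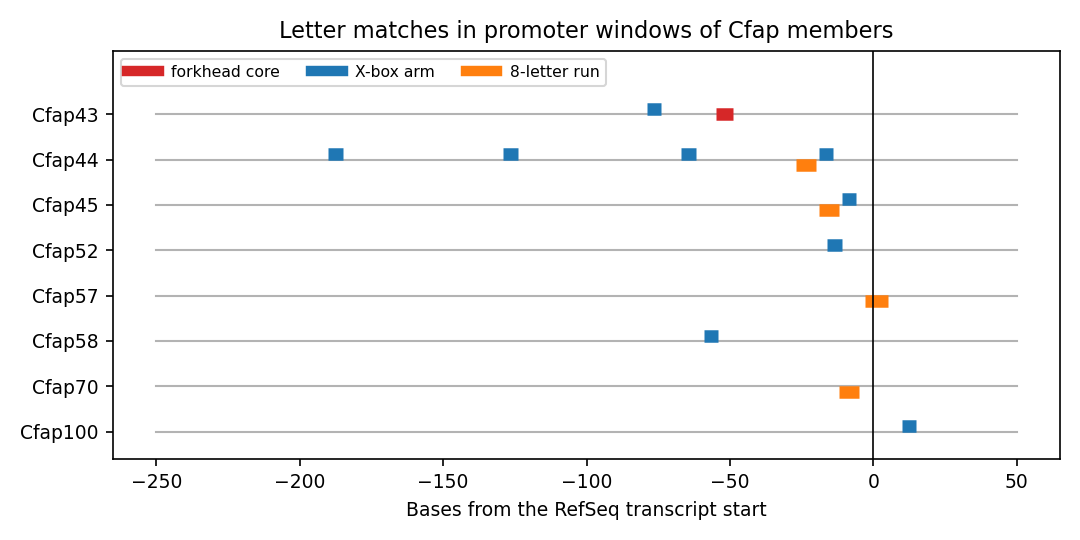
Positions of the letter matches in the promoter windows of 8 Cfap members, in bases from the RefSeq transcript start, with red for TGTTTAC, blue for GTTNCC and orange for GTTGCTAT on either strand. The orange marks of Cfap44, Cfap45, Cfap57 and Cfap70 lie within 27 bases before the start or across it, and the red mark occurs in Cfap43 alone.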

How the data were processed

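The scanner tables, made with Agilent Feature Extraction 9.5.3.1 per the submitters' processing notes, hold linear mean and background intensities as deposited by the authors, with processed intensities, a log10 ratio of red over green and 0 or 1 flags (other values) per the file headers. The scanner software's processed signals are background-subtracted and dye-normalized per the file headers. The files of both samples were identical in 115 of 115 columns and taken as 1 array, with E14.5 in its green and E18.5 in its red channel. The authors' deposited value table holds the processed intensity of each channel times 0.339, with a floor of 15; it is linear and uncentred, with medians of 129 (E14.5) and 130.2 (E18.5), and the sources used here do not explain the factor.

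Mean intensities were corrected with normexp (offset 50) and log2 ratios normalized in limma 3.58.1 (R 4.3.3) by loess with a span of 0.3 and 4 iterations, with control and outlier spots (160) at weight 0. The procedure was tested on simulated data. The offset pulls ratios of dim genes towards 0. Loess holds the centre of the ratios near 0 and would hide a change shared by most genes. A gene was represented by its brightest probe that the scanner flagged as well above background at either age. A probe dim in 1 channel gave a bound against the higher of the dim spot's signal and the channel's lowest signal above background. Probes flagged well above background made up 75.2% at the earlier and 78.7% at the later age. Repeated spots (at least 3) of a probe had a median SD of 0.04.

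Names came through RefSeq for GRCm38.p6 (33099 probes, 19748 genes). Promoters are RefSeq's, and probe stretches are from the scanner files. Named were the 10 members, 5 other Cfap genes from each end of their ranking by ratio, Foxj1 and the first 2 markers of each cell type, except 1 marker that is not reported here. Members and lists were chosen with earlier results of these data known. Calls were by size, at 2-fold and 8-fold. Python 3.11.15, pandas 2.3.3 and matplotlib 3.10.9 were used. Precision is limited by the 1 array.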

Additional observations from a re-analysis of the deposited data

How the results depend on the processing

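The count of 10 members at least 2-fold higher was also obtained with the scanner software's ratio, the deposited value table, an offset of 10, median centring in place of loess, and no filter on dim probes. It was 9 with the median over probes, where Cfap65 came to 0.51, and 8 with the dimmest probe, where Cfap58 (0.61) and Cfap65 (0.51) had bounds under 2-fold, which allow a larger difference; the dimmest probe was chosen after seeing the data. The members' median log2 ratio was 4.14 to 4.25 under the first 5 alternatives, 3.79 with the median over probes and 3.47 with the dimmest probe. The genes found under the current or former symbols alone, also set apart after seeing the data, were all at least 2-fold higher (7 of 7, median 4.17). No member changed sign (0 of 70 values), and 14 of 70 moved by more than the SD between probes. A bound below 0 for a probe dim at E14.5 was discarded, so such values could not change sign. Cfap44 moved from 4.58 to 3.16 with the median over probes and to a bound of 1.75 with the dimmest probe. For the members, the deposited value table repeated the scanner software's ratios. Leaving out the filter repeated their main values. Neither setting is a separate check, though both are among the 70 values. The 4 members with 1 probe also repeat their main values with the median over probes and the dimmest probe. Members at least 8-fold higher numbered 9 in the main values and 10 with the scanner software's ratio and the deposited value table. It was 9 with an offset of 10, median centring or no filter, 8 with the median over probes and 7 with the dimmest probe. Among all genes, 546 of 17244 were at least 8-fold higher in the main values. The counts were 778 of 17244 with the scanner software's ratio and 423 of 17197 with the dimmest probe. Cfap58 was at 2.30 in the main values, 2.86 with an offset of 10 and 3.44 with the scanner software's ratio, which changes background correction and dye normalization together; the cause was not tested. The centre of all genes moved little: their median was 0.06 in the main values and −0.05 with the scanner software's ratio. That ratio also gave 2690 genes lower by 2-fold or more, against 1738. The count of other Cfap genes at least 2-fold higher was between 18 and 22. Over all genes, 14.1% (dimmest probe) to 19.2% (median centring) were at least 2-fold higher across these settings. With 1 array, signal over background limits the dim probes. No paired analysis was possible because each age is 1 sample.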
